A study of Mus musculus with 4 samples.

Results

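The genes described here encode the secreted and cell-surface metalloproteases of the extracellular matrix and their tissue inhibitors. They were chosen by name: every row of the comparison table whose gene symbol belongs to the ADAM, ADAMTS, ADAMTS-like, MMP or TIMP series, with Adam10 and Adam17 left out. This gave 61 of the 20296 genes in the table, namely 15 MMPs, 19 ADAMTS proteases, 4 ADAMTS-like genes, 19 ADAMs and 4 TIMPs. The choice used no measured value, but the group was proposed with results of this comparison known, so its counts and medians are descriptions and carry no test.

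Total RNA libraries were sequenced for mouse embryonic stem cells in the naive state (nESC), held in 2i/LIF medium, and for epiblast-like stem cells (EpiLSC), collected on day 3 in N2B27 medium with activin A at 20 ng/ml and bFGF at 12 ng/ml, on gelatin-coated plates. Each state had 2 samples, 1 of the embryonic stem cell line R1 and 1 of E14TG2a (E14), with no genetic change named for either line. The 2i/LIF medium holds cells in the naive state with kinase inhibitors and the cytokine LIF, and EpiLSC correspond to the epiblast shortly after implantation. Medium and state changed together, so their parts cannot be told apart, and each line was sampled 1 time per state, so the p-values measure the spread between lines and samples and not that between repeat cultures.

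Matrix metalloproteases (MMPs) are zinc proteases made as inactive precursors; some are secreted and others are anchored in the plasma membrane. ADAMs are membrane proteins with a disintegrin domain, many of which cut the outer part of other membrane proteins, a step called shedding, while ADAMTS proteases are secreted, carry thrombospondin repeats and cut proteoglycans, procollagens and other matrix proteins. The tissue inhibitors of metalloproteases (TIMPs) bind the active site of these enzymes. In the embryo the group is best known from remodelling of basement membranes and from the release of growth factors.

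Of the 61 genes, 52 had an adjusted p in the authors' deposited table; 12 of them rose and 3 fell in EpiLSC (adjusted p under 0.05, from the Wald test of DESeq2 with Benjamini-Hochberg adjustment). Over all 16361 genes with an adjusted p, 7.67% rose, 6.23% fell and 13.9% were called in either direction. The risen genes were 7 ADAMTS proteases (Adamts1, Adamts2, Adamts3, Adamts5, Adamts6, Adamts15 and Adamts19), 3 MMPs (Mmp2, Mmp16 and Mmp25) and the inhibitor genes Timp2 and Timp3. The fallen genes were Adam19, Mmp19 and Timp1. Of 15 tested ADAMs 0 rose, and of 17 tested ADAMTS proteases 0 fell. Set beside 7.67% risen and 6.23% fallen over all tested genes, counts of 0 in so few genes are near the share. The median log2 fold change of the 52 tested members was 0.59, against 0.02 over all tested genes. A positive value was found for 30 of the 52, which is near the share of 8349 of all 16361 tested genes.

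**Figure D1:**
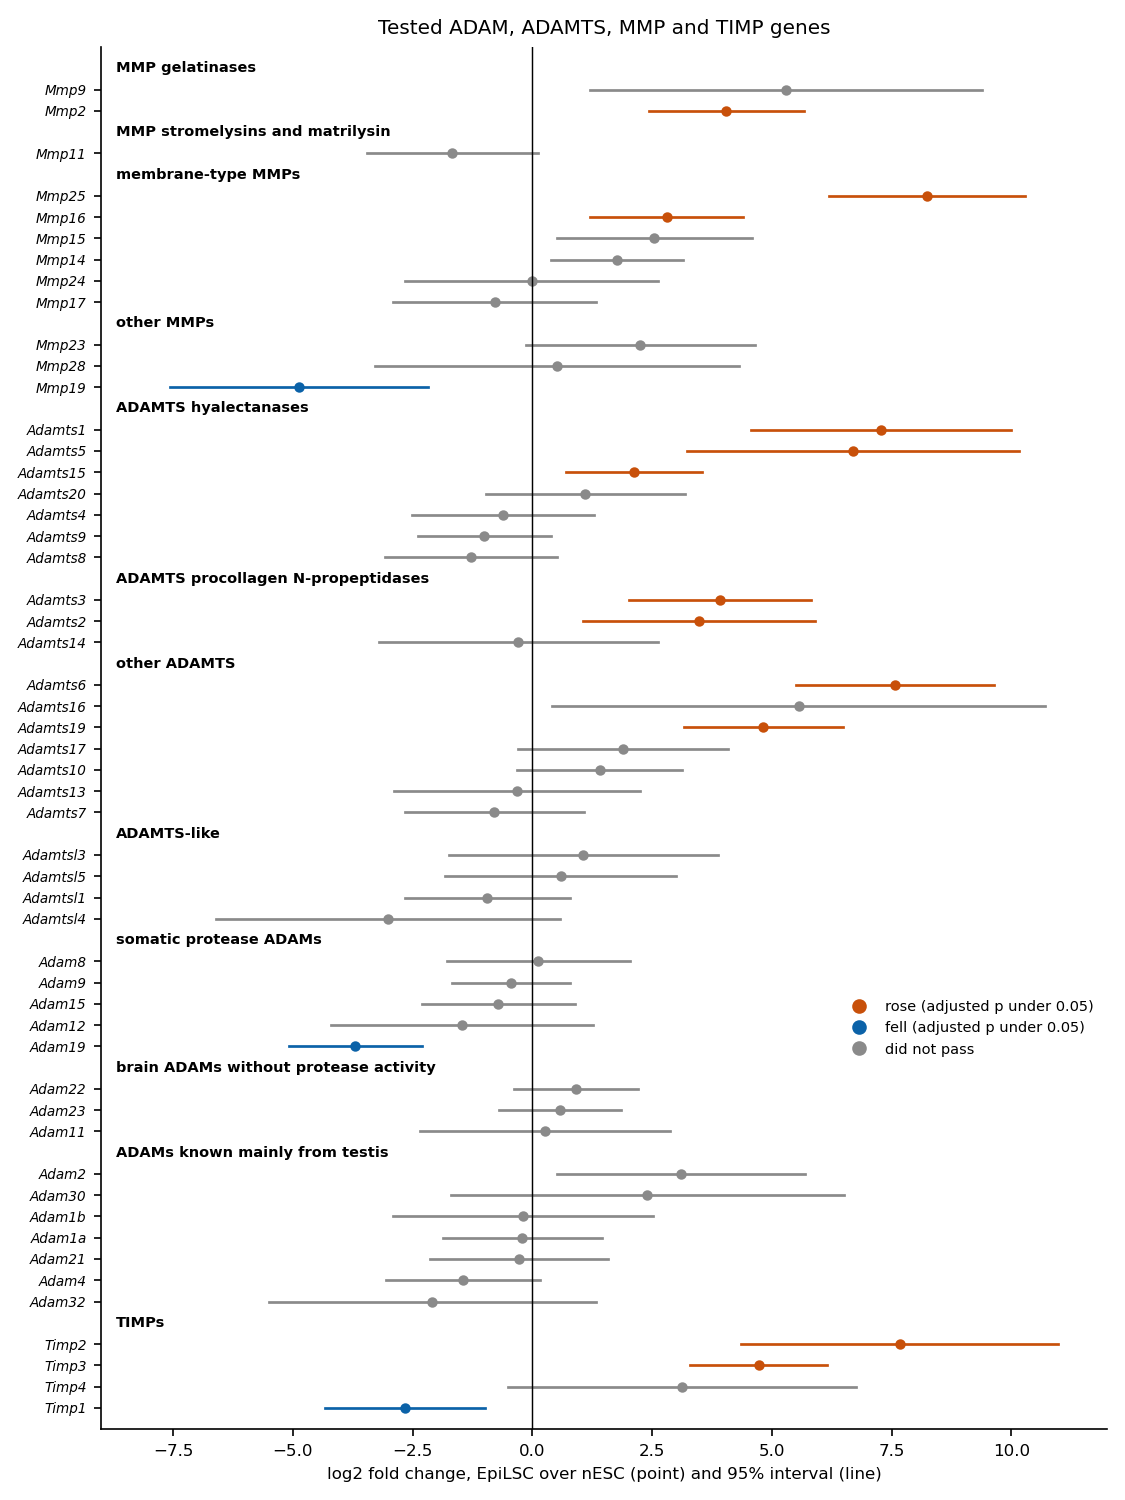
Log2 fold change of EpiLSC over nESC (horizontal axis) for the 52 tested members, grouped by family, with points at the deposited value and lines spanning the 95% interval. The 12 risen members lie between 2.12 (Adamts15) and 8.24 (Mmp25), and the 3 fallen members between -2.66 (Timp1) and -4.88 (Mmp19).

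The direction was read from known genes, because the table's header does not state it: the authors' deposited table gave positive values for Fgf5 (8.40, SE 0.76), Otx2 (3.90, SE 0.66) and Dnmt3b (4.63, SE 0.63), genes of the epiblast after implantation. The naive genes Zfp42 (-6.22, SE 0.62), Klf4 (-6.29, SE 0.68) and Esrrb (-8.54, SE 0.69) had negative values per the authors' deposited table. The table holds 1 mean per gene and no column per sample. A level per state is therefore the value implied by the mean and the fold change, in normalized counts and without an SD. For the 56 members with a mean under 1000, however, exactly 1 set of whole reads from 4 libraries, divided by their size factors, gave the deposited mean. These libraries are lettered A to D by falling size factor (1.28, 1.24, 0.876 and 0.735). None was assigned to a single sample or line, and no test was made on their reads. In 50 of 50 members with reads on both sides, the log2 ratio of B and D over A and C lay within 0.3 of the deposited fold change. By this match B and D stand on the EpiLSC side and A and C on the nESC side, which no label states.

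Members were mostly of low abundance. The median of their mean normalized counts was 51.6 among the 52 tested, against 305 over all tested genes, and 65.4% of the tested members lay under 100, against 34.5% of all tested genes. Their median standard error was 1.05 on the log2 scale, against 0.79 for all tested genes. Of the 37 tested members that did not pass, the 95% interval of 3 stayed inside a 4-fold change either way, so a missed threshold shows no lack of change. The 9 members without an adjusted p had means of at most 2.64; the lowest was Adam3, with 2 reads in library A and none in the others, which is also the lowest mean of the table.

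**Figure D2:**
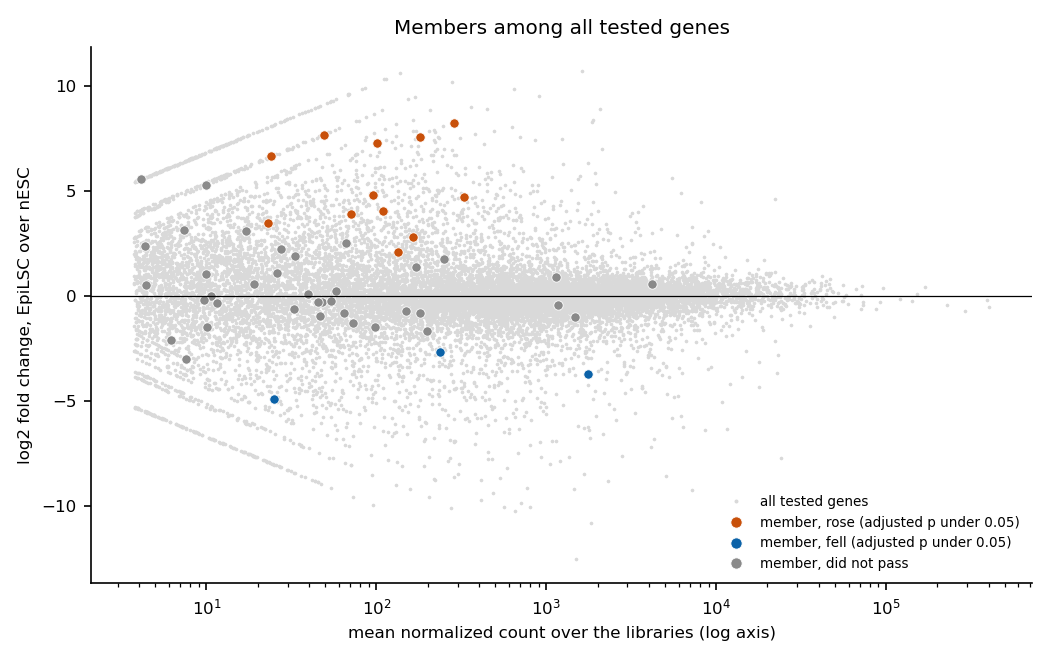
Mean normalized count (horizontal log axis) against log2 fold change of EpiLSC over nESC (vertical axis) for all 16361 tested genes in grey and the 52 tested members in colour. Most members lie at means under 100, to the left of the bulk of all genes, and the risen members lie at means between 23.2 (Adamts2) and 326 (Timp3).

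The TIMPs changed in opposite directions. Timp1, an inhibitor of most secreted MMPs, had 595 reads in library A, 131 in B, 309 in C and 17 in D. Reads in A and C thus exceeded those in B and D. It fell by 2.66 on the log2 scale (SE 0.85, adjusted p 0.017) per the authors' deposited table, from an implied 409 to 64.9 normalized counts. Against a null of a 2-fold change Timp1 no longer passed (adjusted p 0.212, with 0.017 to 0.425 across all alternatives).

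Timp3, which is bound to the matrix and also inhibits ADAMs and ADAMTS proteases, had 33, 1026, 19 and 316 reads in libraries A, B, C and D. It rose by 4.72 (SE 0.73, adjusted p 7.53e-09) per the authors' deposited table, from an implied 23.8 to 629 normalized counts. Timp2, an MMP inhibitor that also takes part in the activation of Mmp2 by Mmp14, had 0, 180, 1 and 36 reads. It rose by 7.67 (SE 1.69, adjusted p 0.000116) per the authors' deposited table, a size that rests on 1 read in libraries A and C together. Timp4, with 1, 4, 2 and 17 reads, was at 3.13 (SE 1.85) and did not pass per the authors' deposited table. In Timp2 and Timp3 libraries B and D were high and A and C low, in Timp1 the reverse, while Timp4 had 24 reads in all.

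Levels of different genes can be compared per length only, here as normalized counts per kb of merged exons. On that scale Timp1 was the highest of the 61 members in nESC, at 461, and Timp3 stood at 2.92 and Timp2 at 0.123. In EpiLSC the order of the inhibitors was Timp3 at 77.3, Timp1 at 73.1, Timp2 at 25 and Timp4 at 2.24, so that the first and second were nearly level. Summed over the 4 inhibitors, the level per kb was 464 in nESC and 178 in EpiLSC, whereas the same sum without division by length was 435 and 805 normalized counts. The direction of the sum thus turned with the scale, since Timp1 has the shortest exons of the 4 genes (888 bases, against 8144 for Timp3).

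Timp1, Timp3 and Timp4 lie inside the synapsin genes Syn1, Syn3 and Syn2, on the opposite strand. Exons of Syn3 overlap 21.3% of the exon bases of Timp3, and per the authors' deposited table Syn3 was at 0.19 (SE 0.89) and did not pass. Timp1 shares no exon bases with Syn1, which was at -0.72 (SE 1.05) per the authors' deposited table. The libraries were strand-specific, but the strand setting of the counting is not given in the sources used here.

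Among the gelatinases, which cut denatured collagen and type IV collagen of basement membranes, Mmp2 had 17, 344, 10 and 97 reads in libraries A, B, C and D. It rose by 4.05 (SE 0.82, adjusted p 2.41e-05) per the authors' deposited table, the levels implied being 12.4 for nESC and 205 for EpiLSC. Mmp9 had 0, 41, 1 and 4 reads, nearly all in library B. At 5.30 (SE 2.09, adjusted p 0.0719) per the authors' deposited table, it had a larger value than Mmp2 but did not pass.

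The membrane-type MMPs act at the cell surface, and Mmp14 among them is the main activator of the Mmp2 precursor. Mmp25, which is held by a glycolipid anchor and is best known from leukocytes, had 2, 968, 2 and 260 reads in libraries A, B, C and D. It rose by 8.24 (SE 1.04, adjusted p 5.99e-13) per the authors' deposited table, the largest change among the called members. Its implied level per kb went from 0.355 to 107, which made it the third highest of the 61 members in EpiLSC. The size of its fold rests on the 4 reads of libraries A and C.

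Mmp16, which can also activate Mmp2, had 47, 178, 40 and 318 reads in the libraries A to D. It rose by 2.80 (SE 0.81, adjusted p 0.00624) per the authors' deposited table, but no longer passed against a null of a 2-fold change (adjusted p 0.128, with 0.00548 to 0.256 across all alternatives). Mmp14 had 139, 623, 105 and 200 reads. It was at 1.76 (SE 0.70, adjusted p 0.0785) and Mmp15 at 2.55 (SE 1.04, adjusted p 0.0882) per the authors' deposited table, so both lay just outside the threshold with Mmp9. Just inside it lay Timp1 (adjusted p 0.017), Adamts15 (0.0277) and Adamts2 (0.0372) per the authors' deposited table.

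The other 2 membrane-type genes, Mmp17 (-0.79, SE 1.08) and Mmp24 (-0.01, SE 1.35), did not pass per the authors' deposited table. Of the remaining MMPs, Mmp19, which cuts basement membrane proteins, had 30, 1, 64 and 2 reads in libraries A, B, C and D. It fell by 4.88 (SE 1.38, adjusted p 0.0046) per the authors' deposited table, a size that rests on the 3 reads of B and D. Against a 2-fold change Mmp19 passed with a one-sided test (adjusted p 0.0329) and missed with the p doubled (0.0658), the lowest of its alternatives being 0.0046. Exons of Tmem198b on the opposite strand overlap 22.3% of its exon bases; that gene was at 0.00 (SE 0.69) and did not pass per the authors' deposited table. Mmp11, also called stromelysin 3, was the most abundant MMP per kb in nESC at 109. With 488, 199, 196 and 21 reads it was at -1.67 (SE 0.91) and did not pass per the authors' deposited table. Exons of Chchd10 on the opposite strand overlap 5.58% of the exon bases of Mmp11. Chchd10, with a mean of 1605, was at -1.76 (SE 1.28) and did not pass per the authors' deposited table. Whether reads of Chchd10 entered the count of Mmp11 was not tested. Taken as a family, 3 of 12 tested MMPs rose and 1 fell, with a median log2 fold change of 2.01. Over all tested genes 7.67% rose and 6.23% fell, with a median of 0.02.

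**Figure D3:**
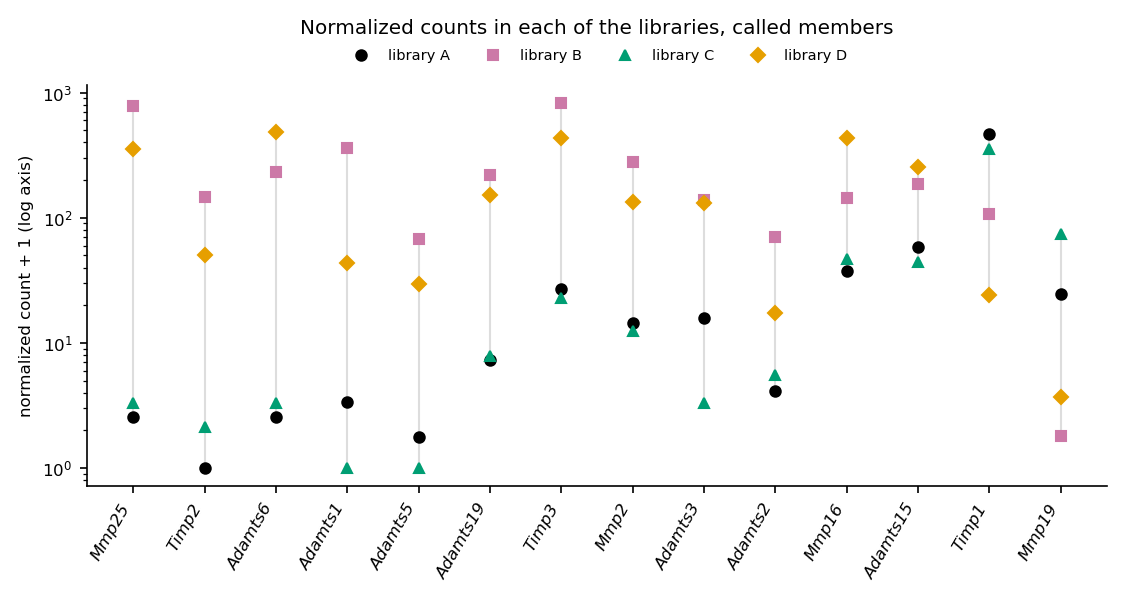
Normalized count + 1 (vertical log axis) in libraries A, B, C and D for the 14 called members whose mean resolved into whole reads; the grey line joins the lowest and highest library of a gene. Libraries B and D lie above A and C in all 12 risen genes and below them in Timp1 and Mmp19, an order that a called fold change largely fixes.

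The ADAMTS proteases were the family with the most risen members by count, 7 of 17 tested, with a median log2 fold change of 1.89. Over all tested genes 7.67% rose and the median was 0.02. By share the TIMPs, with 2 of 4 risen, stood higher, and the MMPs had a higher median, at 2.01. The hyalectanases cut the large hyaluronan-binding proteoglycans such as aggrecan and versican, and 3 of the 7 rose. Adamts1 had 3, 446, 0 and 31 reads in libraries A, B, C and D. It rose by 7.28 (SE 1.39, adjusted p 5.21e-06) per the authors' deposited table, and B had 360 normalized counts against 42.2 in D. Adamts5, the main aggrecan-cutting enzyme of mouse cartilage, had 1, 83, 0 and 21 reads and rose by 6.70 (SE 1.77, adjusted p 0.00204) per the authors' deposited table. Both folds rest on few reads in A and C, at most 3 in a library. Adamts1 and Adamts5 are next to each other on the same strand, with no other protein-coding gene between them in the GENCODE M21 annotation.

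Adamts15, another versican-cutting enzyme, had 73, 229, 38 and 186 reads. It rose by 2.12 (SE 0.72, adjusted p 0.0277) per the authors' deposited table, but no longer passed against a null of a 2-fold change (adjusted p 0.394, with 0.0245 to 0.789 across all alternatives). Its neighbour on the opposite strand, Adamts8, was at -1.28 (SE 0.92) per the authors' deposited table and did not pass. The hyalectanase with the highest level in both states was Adamts9, at 131 per kb in nESC and 65 in EpiLSC. At -1.01 (SE 0.71, adjusted p 0.499) per the authors' deposited table, it did not pass. A730049H05Rik, which lies inside Adamts9 on the opposite strand and overlaps 9.18% of its exon bases, fell by 6.74 (SE 0.88) per the authors' deposited table.

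Of the procollagen N-propeptidases, which remove the amino-terminal propeptide of fibrillar procollagens, 2 of 3 rose, against 7.67% of all tested genes. Adamts3, which also takes part in the processing of the growth factor Vegfc, had 19, 171, 2 and 95 reads in libraries A, B, C and D and rose by 3.92 (SE 0.97, adjusted p 0.000889) per the authors' deposited table. Adamts2, the enzyme of type I procollagen, had 4, 85, 4 and 12 reads. It rose by 3.49 (SE 1.24, adjusted p 0.0372) per the authors' deposited table, but no longer passed against a null of a 2-fold change (adjusted p 0.188, with 0.0346 to 0.377 across all alternatives). The third, Adamts14, was at -0.29 (SE 1.49) per the authors' deposited table.

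Among the other ADAMTS proteases, Adamts6, a relative of Adamts10 known from heart development, had 2, 285, 2 and 356 reads in libraries A to D. It rose by 7.57 (SE 1.05, adjusted p 8.1e-11) per the authors' deposited table, and its implied level per kb went from 0.242 to 45.8, the highest of the ADAMTS proteases in EpiLSC after Adamts9. Adamts19, known from heart valves, had 8, 270, 6 and 112 reads and rose by 4.83 (SE 0.84, adjusted p 4.62e-07) per the authors' deposited table. Adamts10 itself, with 177, 470, 43 and 88 reads, was at 1.41 (SE 0.88) and did not pass per the authors' deposited table. None of the 4 ADAMTS-like genes, which encode matrix proteins without a protease domain, passed. Their values ran from -3.01 (Adamtsl4, SE 1.83) to 1.06 (Adamtsl3, SE 1.43) per the authors' deposited table. An unadjusted Wald p under 0.05 was found for 0 of the 4, against 3558 of all 16361 tested genes. With 13.9% of all tested genes called, 0 of 4 is near the share.

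**Figure D4:**
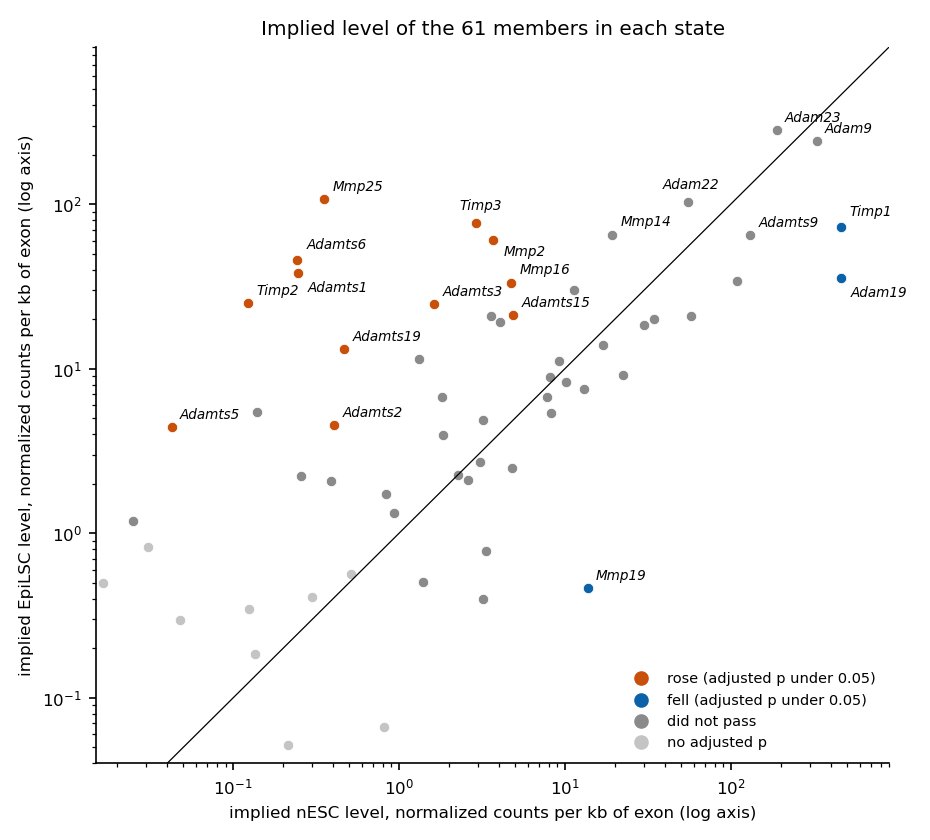
Implied level of each of the 61 members in nESC (horizontal log axis) and EpiLSC (vertical log axis), in normalized counts per kb of merged exons; the line marks equal levels. Adam19 and Timp1 lie far to the right at 460 and 461 in nESC, Mmp25, Adamts6, Adamts1 and Timp2 lie under 0.4 in nESC and above 20 in EpiLSC, and Adam9 and Adam23 lie near the line at high levels.

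The ADAMs held the most abundant members, and 1 of 15 tested was called, against 13.9% of all tested genes. Adam19, a shedding enzyme of neuregulins that is needed for heart development, fell by 3.70 (SE 0.71, adjusted p 5.88e-06) per the authors' deposited table. Its implied level went from 3272 to 253 normalized counts, or from 460 to 35.5 per kb, second only to Timp1 among the members in nESC. With a mean of 1762 it was above the range in which reads per library could be resolved. Among the other somatic protease ADAMs, Adam9, a broadly expressed shedding enzyme, was at -0.44 (SE 0.63, adjusted p 0.874) per the authors' deposited table. Its 95% interval ran from -1.68 to 0.80, which is within a 4-fold change either way. Adam8, Adam12 and Adam15 also did not pass, with values from -1.47 (Adam12, SE 1.39) to 0.13 (Adam8, SE 0.98) per the authors' deposited table.

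Adam22 and Adam23 lack protease activity and are known as receptors of secreted Lgi proteins at synapses. Adam23 had the highest level of all members in EpiLSC, at 281 per kb, and 189 in nESC. It was at 0.58 (SE 0.65, adjusted p 0.794) and Adam22 at 0.91 (SE 0.66, adjusted p 0.521) per the authors' deposited table, and neither passed. Of the ADAMs known mainly from testis and sperm, 10 were in the table and 7 tested. Of these 0 were called, against 13.9% of all tested genes. An unadjusted Wald p under 0.05 was found for 1 of the 7, Adam2, against 3558 of all 16361 tested genes. Counts this small are near those shares. Adam2, a sperm surface protein, had 2, 20, 5 and 33 reads and was at 3.10 (SE 1.33, adjusted p 0.112) per the authors' deposited table.

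The sequences before the start sites are shown for 1 inhibitor and 1 protease that rose and 1 of each that fell, since Timp3 and Timp1, and Adamts3 and Adam19, went opposite ways. RefSeq promoters of build GRCm38.p6 were matched by symbol for 36 of the 61 members, giving 40 windows of the 250 bases before a start. The 6 windows of risen members (Adamts1, Adamts2, Adamts3, Mmp25, Timp2 and Timp3) held 15 to 35 CpG, and the 4 windows of fallen members (3 starts of Adam19 and 1 of Timp1) held 4 to 7. The 23 windows of members that did not pass ranged from 0 to 39 with a median of 15, and the median over 21263 windows of protein-coding genes was 10. The range of the members that did not pass thus covered both groups. A count of 15 or more CpG was found in 12 of these 23 windows and in 36.7% of the windows of protein-coding genes. Only 8 of the 15 called members had a window. The CpG count, like the motifs, was chosen after the values were seen; in the longer windows scanned first, which reached 50 bases past the start, the counts were 18 to 41 for risen and 5 to 11 for fallen members. In the sequences below, capitals mark each CpG.
Timp3, chr10:86300162-86300411, plus strand: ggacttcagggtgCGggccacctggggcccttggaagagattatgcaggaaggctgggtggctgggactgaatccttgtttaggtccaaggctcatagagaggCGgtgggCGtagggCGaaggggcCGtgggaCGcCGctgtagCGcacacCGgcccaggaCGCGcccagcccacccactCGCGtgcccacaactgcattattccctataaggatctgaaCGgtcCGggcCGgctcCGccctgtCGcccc
Adamts3, chr5:89883335-89883584, minus strand: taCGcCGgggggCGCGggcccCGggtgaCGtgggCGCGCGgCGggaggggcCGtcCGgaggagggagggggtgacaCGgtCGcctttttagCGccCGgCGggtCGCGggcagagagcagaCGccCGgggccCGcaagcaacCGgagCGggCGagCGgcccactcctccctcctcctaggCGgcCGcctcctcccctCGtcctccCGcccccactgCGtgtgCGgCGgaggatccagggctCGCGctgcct
Timp1, chrX:20869916-20870165, plus strand: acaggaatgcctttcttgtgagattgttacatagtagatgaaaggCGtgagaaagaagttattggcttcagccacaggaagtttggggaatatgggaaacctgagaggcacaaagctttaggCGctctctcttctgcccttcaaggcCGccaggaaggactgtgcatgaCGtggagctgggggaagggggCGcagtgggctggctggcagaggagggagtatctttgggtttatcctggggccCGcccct
Adam19, chr11:46055734-46055983, plus strand, the start with the most CpG of 3: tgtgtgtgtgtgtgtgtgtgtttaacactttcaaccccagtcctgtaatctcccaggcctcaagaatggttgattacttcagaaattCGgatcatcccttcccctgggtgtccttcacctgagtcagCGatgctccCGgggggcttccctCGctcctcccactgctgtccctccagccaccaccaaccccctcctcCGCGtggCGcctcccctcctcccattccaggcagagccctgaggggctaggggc
The Adamts3 window holds 35 CpG, the most among the windows of risen members, and the Timp3 window 18. The Timp1 window holds 6 and the Adam19 window 7. Of the other risen proteases, the windows of Adamts1 and Mmp25 hold 15 and 17 and that of Adamts2 holds 34.

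Classical MMP promoters are known for binding sites of AP-1, so its motif TGANTCA was searched on both strands of these windows, where it reads the same. It was found in 4 of 40 member windows (10%), those of Adam19, Adam25, Mmp12 and Mmp20, against 6.75% of 32851 windows of all genes; in the longer windows it was in 5 of 40 (12.5%) against 7.81%. In the Adam19 window printed above its centre lies 128 bases before the start. The motifs TAATCC, bound by Otx factors, and CTTTGAT, bound by Tcf and Lef factors, were searched on both strands as well. Each was in 0 of the 40 windows, against 6.25% and 3.21% of all windows, which says only that these letters are not in these stretches.

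Genes that act on these enzymes were split. Of 18 tested genes of activation and inhibition, 5 rose and 3 fell, with a median log2 fold change of 0.19. For the counts of this list and of those that follow, the shares over all tested genes were 7.67% risen and 6.23% fallen. Spock2 and Spock3, which encode testicans, proteoglycans of the matrix, rose by 4.70 (SE 0.74) and 8.13 (SE 1.88) per the authors' deposited table. Per the authors' deposited table, A2m, the gene of a broad protease inhibitor, fell by 4.05 (SE 0.77). The convertase gene Furin, whose product activates membrane-type MMPs and ADAMs, was at 0.13 (SE 0.99) and did not pass per the authors' deposited table. Of the other convertase genes in the list, Pcsk6 fell (-3.32, SE 0.88) per the authors' deposited table, from an implied 1900 to 191 normalized counts. Pcsk5 (-0.19, SE 1.57) and Pcsk7 (-0.96, SE 0.75) did not pass per the authors' deposited table. Reck, a membrane-anchored MMP inhibitor, was at -0.07 (SE 0.69) per the authors' deposited table and did not pass.

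Of 6 tested EGF-family ligands, which are released from the cell surface by shedding, 2 rose and 1 fell. Nrg1 rose by 3.84 (SE 0.98) and Tgfa by 3.08 (SE 0.81), and Nrg4 fell by 2.54 (SE 0.85) per the authors' deposited table. Hbegf, at -1.33 (SE 0.67), did not pass per the authors' deposited table. Of 17 tested matrix substrates, 4 rose and 3 fell, with a median of 2.05. The most abundant of them, Fn1, fell by 3.64 (SE 1.05) per the authors' deposited table, from an implied 41938 to 3353 normalized counts. Summed over the 19 substrates, the implied level was 70084 normalized counts in nESC and 12710 in EpiLSC, or 7444 and 1437 per kb. Most of the nESC sum came from Fn1, Nid1 (implied 10783) and Nid2 (8821). It does not describe the list as a whole, in which 11 of the 17 tested genes had a positive fold change. Ncan, a brain proteoglycan, rose by 4.51 (SE 0.86) and Fbn1, the microfibril protein fibrillin, by 2.81 (SE 0.72), while Nid1 of the basement membrane (-5.83, SE 0.69) and Vwf (-6.79, SE 1.02), the substrate of Adamts13, fell per the authors' deposited table. Vcan, the versican gene and a substrate of the hyalectanases, was at -0.94 (SE 0.77) and did not pass per the authors' deposited table. Of 8 tested related metalloproteases 1 rose, Bmp1 (3.72, SE 1.25), which removes the other propeptide of procollagens, and 2 fell, Mep1b (-7.91, SE 1.27) and Mme (-3.62, SE 0.67), per the authors' deposited table.

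**Figure D5:**
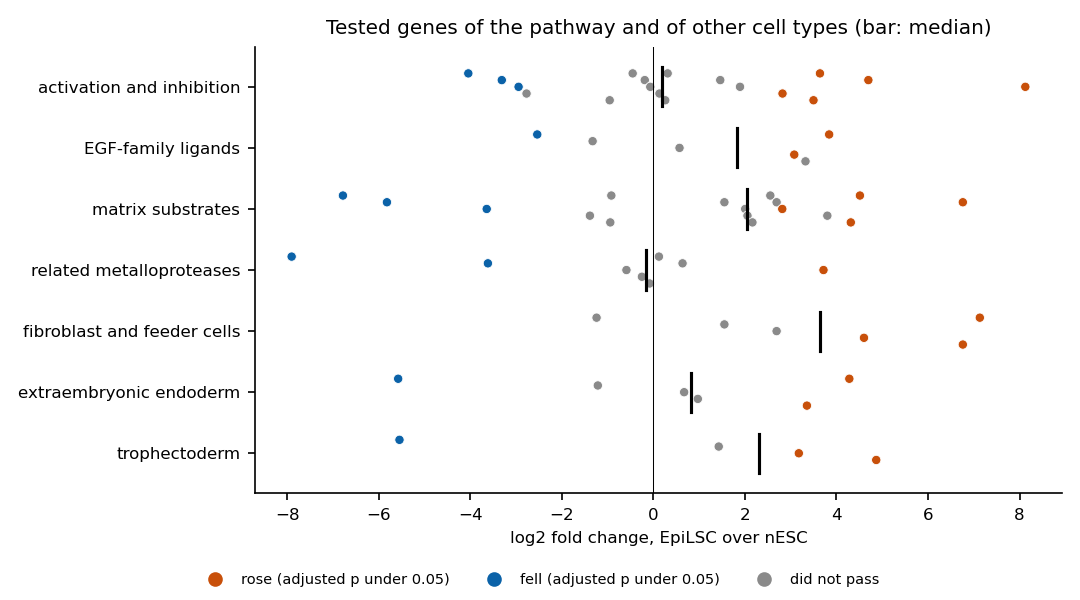
Log2 fold change of EpiLSC over nESC (horizontal axis) of the tested genes in 4 lists of the pathway and 3 lists of other cell types; the bars are medians. Risen and fallen genes occur together in 6 of the 7 lists, and the fibroblast and feeder list has 3 risen and 0 fallen genes.

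Several of these genes are also made by other cells. Of 6 tested fibroblast and feeder markers 3 rose and 0 fell, against 7.67% and 6.23% of all tested genes. In implied levels, Thy1 went from 5.83 to 141, Acta2 from 0.486 to 68.2 and Dcn from 0.485 to 52.6 normalized counts. The summed implied level of the 9 fibroblast markers in the table was 89.3 normalized counts in nESC and 340 in EpiLSC. The collagen genes of the list did not pass or had no adjusted p: Col1a1 was at an implied 3.09 and 9.04, Col1a2 at 4.24 and 27.4 (unadjusted Wald p 0.0277) and Col3a1 at 0.172 and 7.31, in nESC and EpiLSC. Pdgfrb was at 73.9 and 31.2 and did not pass, and Postn and Lum had means of 1.02 and 1.16 per the authors' deposited table.

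In the extraembryonic endoderm list 2 of 6 tested markers rose and 1 fell, with summed levels of 9555 in nESC and 2314 in EpiLSC. The basement membrane gene Lama1 fell from an implied 6511 to 136, while Col4a1 rose from 38.3 to 744 and Dab2 from 11.8 to 121. The transcription factor genes Gata4 and Sox17 did not pass, and Gata6 and Sox7 had means of 2.81 and 1.41 per the authors' deposited table. Among trophectoderm markers, 2 of 4 tested rose and 1 fell, with summed levels of 648 and 4012. The keratin gene Krt18 rose from an implied 43.4 to 1269 and Eomes, which is also a gene of the epiblast and early mesoderm, from 212 to 1917, while Cdx2 fell from 84.5 to 1.8. Krt8 did not pass, and Elf5, Hand1 and Gata3 had means of at most 2.20 per the authors' deposited table. The part of other cell types in the changes of the proteases and inhibitors was not tested, and in such bulk samples more cells of a type cannot be told apart from more RNA per cell.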

How the data were processed

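RNA of 4 mouse samples, 2 nESC and 2 EpiLSC, was sequenced after ribosomal depletion in stranded libraries, per the labels' protocols. The submitters' processing notes name TopHat2, HTSeq, DESeq2 1.8.2 and the build mm9; the sources used here give no annotation and no strand setting for the counting. The 1 deposited file is the authors' comparison table. Its mean is a signal: counts divided by size factors, averaged by the authors over the libraries. Its log2 fold changes, standard errors, Wald score, p-value and adjusted p were made by the authors with DESeq2, per the file headers; whether folds were shrunk is not given. The deposited adjusted p equalled a Benjamini-Hochberg adjustment of the deposited p-value over 16361 genes (largest gap 2.33e-15), and 3935 genes have none. Total reads per sample are unknown.

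No new test of single genes was made. The members and lists were chosen with earlier results of these data known. Gene IDs were matched without version to GENCODE M21 (GRCm38), 20167 of 20296 with a name; of 82 symbols of the naming rule 61 had a row and 21 were not analysed here. The nESC level is 2 times the mean divided by 1 plus the linear fold change, and the EpiLSC level is 2 times the mean less that, with equal weights for the libraries; 6 of the 15 called members had a lower state under 3. Intervals at 95% are normal. Lengths are merged exons of GENCODE M21, which may differ from the authors' models.

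Reads were resolved from the 4 steps of the low means with a relative tolerance of 1e-14: 56 of 56 members with a mean under 1000 gave 1 solution, and 0 of 56 did after a small shift of the mean. As a check, the log2 ratio of libraries B and D over A and C lay within 0.3 of the deposited fold change in 50 of 50 members with reads on both sides, within 0.1 in 45. Intervals rest on the deposited standard errors and so on the spread between the libraries as the authors' fit modelled it.

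Named were all called members, all TIMPs, the 5 most abundant members that did not pass, 3 on each side of the threshold, and 2 per list and direction with the smallest p, of which 1 gene is not reported here. Other named genes, among them Mmp11, Mmp17, Mmp24, Adam2, Adam8, Adam12, Adam15, Adamts8, Adamts10, Adamts14, Adamtsl3, Adamtsl4, Furin, Reck, Vcan and Fn1, were chosen after their values were seen. The same holds for Pcsk5, Pcsk6 and Pcsk7. The planned split of ADAMs by a motif of the protein was not made, since no protein sequences were used here; textbook roles took its place. Alternatives were no filter, a mean of 100 or more, a threshold of 0.01, a test against a 2-fold change and centred fold changes. The 2-fold test was first run with a doubled p and, after its result was seen, replaced by the planned one-sided form; both are given. Promoter windows were shortened from 300 to 250 bases after a first scan, to leave out transcribed bases. The reads per library, the CpG counts and the motifs were added after the data were seen. The adjustment and the 2-fold test were run on simulated fold changes with normal noise of the deposited standard errors, and the read sums on simulated means. Because the noise matched the test, these runs check the computation only and do not show whether the calls hold. Python 3.11.15, numpy 2.4.6, pandas 2.3.3 and scipy 1.17.1 were used.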

Additional observations from a re-analysis of the deposited data

How the results depend on the processing

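The counts of 12 risen and 3 fallen members were the same with no filter and with fold changes shifted by the median of the more abundant genes (-0.03). At a threshold of 0.01 they were 10 and 2 (5.37% and 4.41% of all tested genes rose and fell), and with the planned one-sided test against a 2-fold change 9 and 2 (4.55% and 3.59%). The same test with a doubled p, which was run first and then replaced after its result was seen, gave 9 and 1 (3.84% and 3.07%). When only genes averaging 100 or more were tested they were 7 and 2 of 18 members (5.94% and 5.74% of all genes tested there), since fewer members were tested. Calls that ended were those of Timp1, Adamts15 and Adamts2 at 0.01, of these 3 and Mmp16 against a 2-fold change, and of Mmp19 as well with the doubled p (adjusted p 0.0658, against 0.0329 one-sided). The other 10 calls stood in every alternative that tested them, and no called direction reversed. The median of tested members was 0.59, 1.16 for those with a mean of 100 or more, 0.58 over all 61 and 0.62 when centred. No paired analysis was possible because no value in the table is tied to a sample or line by a label; the reads resolved per library carry no such tie, and for the same reason no sample was left out. Depth limits the 6 called members whose lower state had an implied level under 3.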

Other observations

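Reads per library, resolved from the deposited means and assigned to no sample, held differences that the comparison of the states does not describe. Adam11, a brain ADAM without protease activity, had 122 reads in library A, 147 in B, 8 in C and 5 in D, or 95.6, 119, 9.13 and 6.80 normalized counts. Its fold change in the authors' deposited table was 0.26 (SE 1.33). Adamts14, a procollagen N-propeptidase, had 102, 107, 23 and 0 reads, and Mmp17, a membrane-type MMP, 465, 299, 82 and 17. The genes named here are among those with the largest differences of this kind. Among the 32 members with at least 100 resolved reads, A and B were both above C and D in normalized counts in 11. They were both below in 1, Adam21 (46.2, 19.4, 52.5 and 62.6 normalized counts). The share of all genes was not computed at this cut, so these counts do not set the members apart.

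Over all 2764 genes with a mean from 20 to 100, A and B were both above C and D in 23.9% and both below in 9.84%; of the 20 members in that range these were 8 (40%) and 1 (5%). What libraries A and B share was not tested.

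Among the 12 risen members, libraries B and D were unequal. B was higher than D in 9 of 12, by up to 8.54-fold in Adamts1, and D was higher in Adamts6, Mmp16 and Adamts15, by up to 3.01-fold in Mmp16. Mmp12 and Mmp20 had the same value in every column of the authors' deposited table; each had 1, 0, 1 and 2 reads in libraries A to D, and 7 genes of the table shared these values.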
